A study of Mus musculus with 10 samples.

Results

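The genes described here run the display of antigens to T cells: 36 genes, of which 16 serve major histocompatibility complex (MHC) class I, 13 serve class II, and 7 present lipids or carry costimulatory and coinhibitory signals. They were listed by name for their place in the pathway, with earlier results of these data known, and looked up by Entrez gene number, and all 36 were found among the 24704 named genes of the array. The samples were primary liver sinusoidal endothelial cells (LSEC) of mice, the fenestrated endothelium of the liver capillaries. In the Gata4-LSEC-KO group (5 arrays), the Clec4g-icre driver, a C57BL/6N transgene, was combined with floxed Gata4 (Gata4tm1.1Sad), so that recombination follows Clec4g, a lectin gene of this endothelium. The control group (5 arrays) came from sibling mice labelled WT, and the labels do not say whether these carried the driver or a floxed allele. Each array held the RNA of 1 pool of 3 mice, isolated with beads against CD146, and the labels give neither age nor sex.

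LSEC are known both as scavenger cells and as unconventional antigen-presenting cells: they take up circulating antigen, cross-present it on class I and are linked to T cell tolerance. Class I molecules display peptides that proteasomes cut in the cytosol and that the TAP transporter carries into the endoplasmic reticulum, where a chaperone complex loads them. Class II molecules are assembled with the invariant chain, exchange a remnant of it for antigen peptide with the help of H2-DM in endosomes, and are made under the control of the CIITA coactivator and the RFX complex. B cells, dendritic cells and macrophages, Kupffer cells included, make class II in large amounts, while endothelium makes less.

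Promoters of class II genes, and of several class I genes, share X and Y boxes, short motifs bound by the RFX complex and by NF-Y. A stretch of 100 bases of 8 members' promoters, from base -130 to base -31 before the gene start, is shown. It covers 4 class II genes with higher means in Gata4-LSEC-KO arrays (H2-DMb2, H2-Aa, H2-Eb1, H2-DMb1), H2-Ob, another class II gene, and 3 class I genes (H2-D1, H2-T23, B2m). Of these genes H2-DMb2 alone passed the test given below. H2-Ob, H2-D1 and B2m also had higher means in Gata4-LSEC-KO arrays and H2-T23 a lower one, so the 2 sets do not differ by direction alone. The bases are from RefSeq, build GRCm38.p6, and are written in the gene's direction. Capitals mark matches to GATTGG, the core of the Y box, or its reverse complement, and to GNNACNNAT, a part of the X box, on either strand; none of the matches shown overlap, and the last match of H2-Eb1 runs past the end of its stretch.
H2-DMb2: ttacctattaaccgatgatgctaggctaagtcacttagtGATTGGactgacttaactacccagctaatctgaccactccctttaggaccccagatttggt (chr17:34145119-34145218, plus strand)
H2-Aa: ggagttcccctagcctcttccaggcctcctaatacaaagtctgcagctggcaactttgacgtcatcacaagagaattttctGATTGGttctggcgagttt (chr17:34287854-34287953, minus strand)
H2-Eb1: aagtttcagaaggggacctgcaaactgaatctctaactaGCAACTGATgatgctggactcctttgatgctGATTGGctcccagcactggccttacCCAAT (chr17:34305737-34305836, plus strand)
H2-DMb1: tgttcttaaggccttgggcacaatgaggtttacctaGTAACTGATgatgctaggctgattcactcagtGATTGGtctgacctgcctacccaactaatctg (chr17:34153061-34153160, plus strand)
H2-Ob: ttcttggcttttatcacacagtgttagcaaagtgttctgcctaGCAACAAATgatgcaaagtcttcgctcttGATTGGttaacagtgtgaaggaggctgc (chr17:34238775-34238874, plus strand)
H2-D1: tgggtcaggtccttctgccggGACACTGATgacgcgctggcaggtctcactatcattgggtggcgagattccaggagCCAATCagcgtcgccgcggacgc (chr17:35262964-35263063, plus strand)
H2-T23: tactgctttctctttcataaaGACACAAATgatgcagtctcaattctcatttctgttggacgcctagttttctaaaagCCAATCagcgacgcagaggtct (chr17:36032732-36032831, minus strand)
B2m: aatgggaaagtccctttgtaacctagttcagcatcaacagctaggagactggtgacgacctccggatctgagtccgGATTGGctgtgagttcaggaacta (chr2:122147557-122147656, plus strand)

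Among these stretches, in H2-DMb1, H2-Eb1 and H2-Ob an X box match was followed by a Y box match on the same strand, the X box match starting at base -94, -91 and -87 and the Y box match at base -62, -60 and -58. Of the 36 members, 27 had a 300-base promoter window (250 bases before to 50 after the start). All 9 class II members with a window held GATTGG, and 8 of 14 class I members and 1 of 4 costimulatory members did, against 16.1% of all 32851 windows. The X box letters were in 6 of 9 class II, 7 of 14 class I and 1 of 4 costimulatory members, against 25.3% of all windows. A member was counted if any of its windows matched, and 2 members had 2 windows, while the shares are of single windows. In H2-DMa the X box and Y box matches lay in different windows. GGGGATTCC, letters of an NF-kB site, was in H2-K1 and H2-D1 and in 0.25% of all windows. GAAANNGAA, letters of an interferon-stimulated response element, was in H2-T23, B2m, Erap1 and Cd274 and in 8.56% of all windows, and all motifs were searched on both strands. A match is a description of the letters, not a site shown to be used.

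RNA was read on 1-colour Affymetrix arrays, and all values here are the authors' log2 values, in which a difference of 1 is a 2-fold difference of array values. Values of a group are listed in the order of replicates 1 to 5. Differences are Gata4-LSEC-KO minus control, with the standard error (SE) and an adjusted p from limma over all 24704 genes, and a gene is said to rise or fall where that p is under 0.05. In the whole series 529 genes passed, 2.14% of those tested, and 4.93% of genes had groups that did not overlap. The Gata4 value read 8.59 ± 0.24 in Gata4-LSEC-KO and 8.71 ± 0.15 in control arrays (SD, n = 5), and no source used here says where its probes lie relative to the deleted part. Control replicate 1 stood apart: its correlations with the other arrays over all genes were 0.920 to 0.944, against 0.969 to 0.988 among the other 9. The 10 markers of sinusoidal endothelium averaged 10.22 to 10.66 on the Gata4-LSEC-KO arrays and 10.70 to 10.94 on the control arrays, far above the array median of 3.71. In RNA of whole pools, more cells of a type and more RNA per cell cannot be told apart.

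Class II genes were the members that differed most, and 1 of them passed the test. H2-DMb2, a beta chain of the peptide exchange factor H2-DM, rose 2.50-fold. The chains of the class II molecules themselves and the invariant chain gene Cd74 lay 1.43-fold to 2.23-fold higher in Gata4-LSEC-KO arrays, but with overlapping groups and without passing. None of their 4 transcriptional regulators passed. Class I genes and costimulatory genes gave no call. Of the 36 members, 1 rose, 0 fell and 35 did not pass, against 1.3% of all genes that rose and 0.846% that fell.

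**Figure D1:**
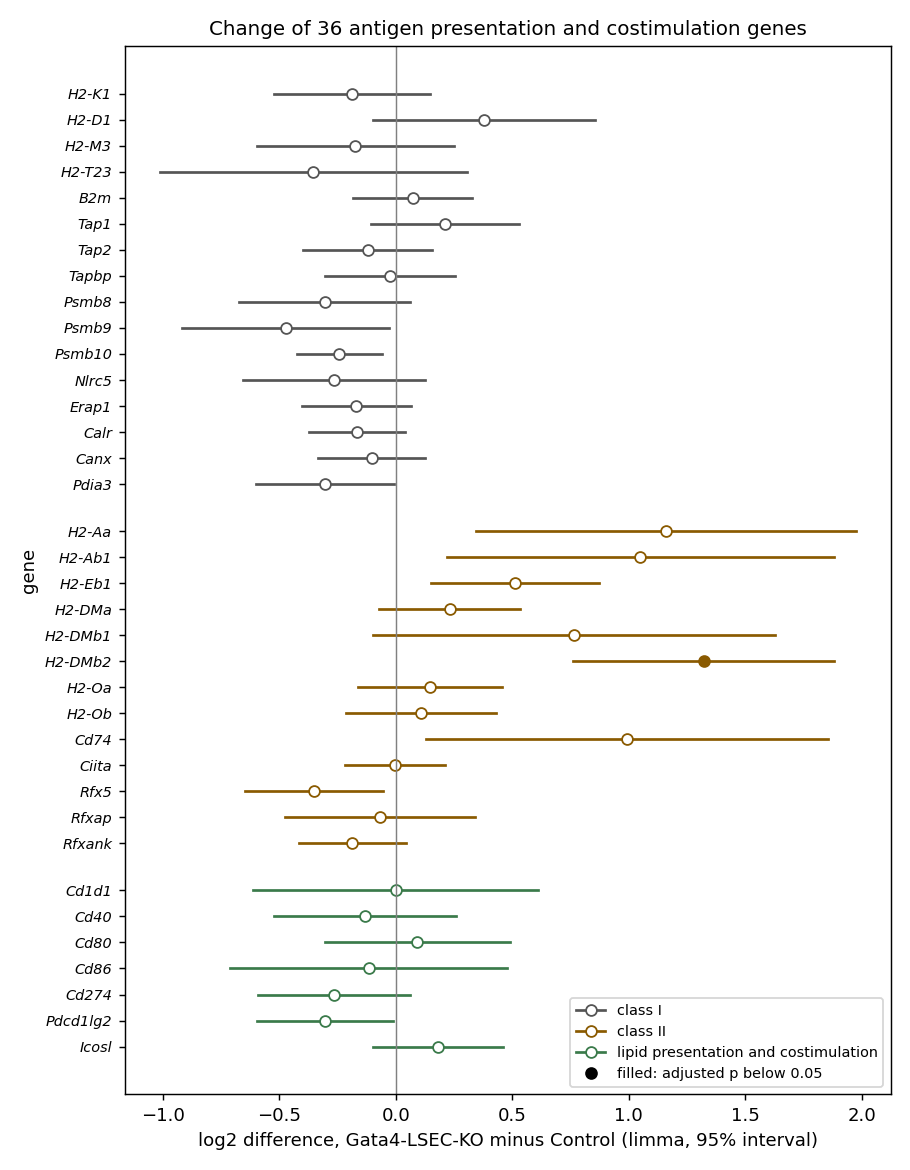
Log2 difference of each of the 36 genes, Gata4-LSEC-KO minus Control (x axis), with its 95% interval from limma, grouped as class I, class II, and lipid presentation and costimulation. The filled point is H2-DMb2 at 1.32, the gene past the threshold; 5 class II genes have intervals wholly above 0, and the intervals of Psmb9, Psmb10, Pdia3, Rfx5 and Pdcd1lg2 lie wholly below 0.

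H2-DMb2 read 5.72, 5.33, 4.77, 5.79 and 5.12 in the Gata4-LSEC-KO arrays, against 3.77, 3.59, 4.48, 4.63 and 3.66 in the control arrays. Every Gata4-LSEC-KO value was above every control value, the nearest being 4.77 in Gata4-LSEC-KO and 4.63 in control arrays. The difference was 1.32 ± 0.26, with an adjusted p of 0.0220 by limma, and its control mean of 4.03 is near the array median, so that the 2.50-fold is a ratio of array values. The call ended without Gata4-LSEC-KO replicate 1 (adjusted p = 0.0624), 2 (0.0611) or 4 (0.0614), or without control replicate 2 (0.0557) or 5 (0.0680), while the difference stayed between 1.21 and 1.47 in all 10 such fits. It stood without control replicate 1, at 1.26 ± 0.27 (adjusted p = 0.0293), where 2.98% of all genes passed and 1.59% rose.

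H2-DMb1, the neighbouring and closely related beta chain gene, read 4.52, 4.83, 4.70, 4.85 and 4.13 in the Gata4-LSEC-KO arrays, against 2.38, 4.42, 3.41, 4.94 and 4.06 in the control arrays. The groups overlapped: control replicate 4 was above every Gata4-LSEC-KO array and control replicate 1 was far below all others. Its difference of 0.76 ± 0.39 did not pass (adjusted p = 0.446), and without control replicate 1 it was 0.40 ± 0.27 (adjusted p = 0.547). Because the 2 genes are near copies, how far their probe sets tell them apart is not known here. H2-DMa, the alpha chain of the same factor, averaged 5.66 ± 0.15 in Gata4-LSEC-KO and 5.43 ± 0.27 in control arrays (SD, n = 5), with an adjusted p of 0.522.

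The chains that hold the peptide were next. H2-Aa, the alpha chain of the H2-A molecule, read 8.71, 8.33, 7.80, 8.46 and 7.60 in the Gata4-LSEC-KO arrays, against 5.65, 7.09, 7.26, 8.0 and 7.14 in the control arrays. Its partner H2-Ab1, the beta chain, read 9.34, 9.13, 8.68, 9.26 and 8.37 in the Gata4-LSEC-KO arrays, against 6.58, 8.01, 7.94, 9.12 and 7.86 in the control arrays. In both genes control replicate 4 lay within the Gata4-LSEC-KO range, and control replicate 1 was the lowest of the 10 arrays by more than 1. The differences were 1.16 ± 0.37 for H2-Aa (adjusted p = 0.166) and 1.05 ± 0.38 for H2-Ab1 (adjusted p = 0.226), and neither passed. Without control replicate 1 they shrank to 0.81 ± 0.25 (adjusted p = 0.129) and 0.72 ± 0.28 (adjusted p = 0.229).

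H2-Eb1, the beta chain of the second class II molecule, read 7.85, 7.72, 7.42, 7.82 and 7.36 in the Gata4-LSEC-KO arrays, against 7.30, 6.91, 7.05, 7.55 and 6.78 in the control arrays. Here control replicate 1 was not low but second highest of the controls, and the groups overlapped through control replicate 4. The difference of 0.51 ± 0.16 did not pass (adjusted p = 0.165), and it was 0.56 ± 0.17 (adjusted p = 0.122) without control replicate 1.

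Cd74, the invariant chain that fills the peptide groove during assembly, read 10.40, 10.39, 10.13, 10.37 and 9.68 in the Gata4-LSEC-KO arrays, against 7.76, 9.48, 9.07, 10.50 and 9.21 in the control arrays. Control replicate 4 had the highest value of all 10 arrays and control replicate 1 the lowest. The difference was 0.99 ± 0.39 (adjusted p = 0.282), and 0.63 ± 0.27 (adjusted p = 0.286) without control replicate 1. The spread of Cd74 was an SD of 0.31 in Gata4-LSEC-KO and 0.98 in control arrays, and 0.65 over the 4 controls without replicate 1.

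The 2 chains of H2-DO, the inhibitor of H2-DM, did not pass. H2-Oa, the alpha chain, averaged 3.31 ± 0.19 in Gata4-LSEC-KO and 3.16 ± 0.25 in control arrays (SD, n = 5) (adjusted p = 0.712), and H2-Ob, the beta chain, averaged 3.44 ± 0.14 in Gata4-LSEC-KO and 3.34 ± 0.30 in control arrays (SD, n = 5) (adjusted p = 0.805). The means of both groups lay below the array median in both genes. The interval of the difference was -0.16 to 0.45 for H2-Oa and -0.21 to 0.43 for H2-Ob.

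Ciita, the coactivator that sets class II transcription in professional antigen-presenting cells, read 4.12, 4.03, 4.08, 4.02 and 4.09 in the Gata4-LSEC-KO arrays, against 4.33, 3.96, 4.08, 4.04 and 3.98 in the control arrays. The Gata4-LSEC-KO values lay inside the range of the controls, with a difference of -0.0045 ± 0.10 (adjusted p = 0.993) and a 95% interval of -0.22 to 0.21. The means, 4.07 in Gata4-LSEC-KO and 4.08 in control arrays, are near the array median, so this is an interval of array values. The RFX subunits, which bind the X box of class I and class II promoters alike, did not pass. Rfx5 averaged 5.53 ± 0.23 in Gata4-LSEC-KO and 5.88 ± 0.18 in control arrays (SD, n = 5) (adjusted p = 0.262), and Rfxank averaged 5.62 ± 0.09 in Gata4-LSEC-KO and 5.81 ± 0.16 in control arrays (SD, n = 5) (adjusted p = 0.493). Rfxap averaged 5.18 ± 0.23 in Gata4-LSEC-KO and 5.24 ± 0.39 in control arrays (SD, n = 5) (adjusted p = 0.912).

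Over the 13 class II members the median difference was 0.23, against -0.02 over all genes, with 9 above 0 and 4 below it. At an unadjusted p under 0.05, 5 were higher and 1 lower, where 7.07% of all genes were higher and 6.57% lower. The members share cells, promoter motifs and, for 8 of them, a stretch of chromosome 17, so they are not independent of each other. Among the controls, the class II mean and the mean of macrophage markers were both lowest on replicate 1 and highest on replicate 4. The order between these ends differed: replicate 5, second highest in marker mean, had a class II mean of 5.48, the lowest after replicate 1. The mean of the 10 Kupffer cell and macrophage markers was 7.11, 8.10, 7.19, 7.08 and 7.93 in the Gata4-LSEC-KO arrays, against 5.45, 6.95, 7.12, 8.27 and 7.73 in the control arrays. Control replicate 1 had the lowest value of all 10 arrays in 9 of these 10 markers and in 6 of the 13 class II members, and control replicate 4 had the highest value of the controls in 10 of 10 markers and in 7 of 13 members. The markers themselves gave 0 calls by limma (0 at an unadjusted p under 0.05, adjusted p of at least 0.589). The same ends were seen outside macrophage markers. Of 8 stellate cell markers, 6 were lowest of the 10 arrays on control replicate 1 and 5 were highest of the controls on replicate 4.

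Without control replicate 1, the macrophage markers averaged 7.48 ± 0.49 in Gata4-LSEC-KO (SD, n = 5) and 7.52 ± 0.60 in control arrays (SD, n = 4), and the 13 class II members averaged 5.98 ± 0.14 in Gata4-LSEC-KO and 5.64 ± 0.25 in those 4 control arrays. With the macrophage mean of each array as a covariate, H2-DMb2 was still called, at 1.27 ± 0.26 (adjusted p = 0.0321). In that fit H2-Aa stood at 0.94 ± 0.29 (adjusted p = 0.152), H2-Ab1 at 0.83 ± 0.29 (adjusted p = 0.220) and Cd74 at 0.74 ± 0.28 (adjusted p = 0.258). The fit assumes that each gene follows the marker mean on the same slope in both groups. Control replicate 1, at 5.45, lay far below the other arrays (6.95 to 8.27) in marker mean, so the slope leans in large part on that array. Within the Gata4-LSEC-KO arrays the orders differed: replicate 4, lowest in marker mean, had the highest class II mean (6.13). Replicate 5, second highest in marker mean, had the lowest (5.77). Hepatocyte markers, described below, averaged highest on replicates 1 (8.51) and 4 (8.26), as class II did, and lowest on replicate 5 (6.64). Cholangiocyte markers were also lowest on replicate 5 (4.61), but highest on replicate 2 (6.55). Among the controls, where class II was highest on replicate 4, hepatocyte markers were highest on replicate 3 (7.16) and cholangiocyte markers on replicate 2 (4.55). Any part of such cells in the class II values was not tested.

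**Figure D2:**
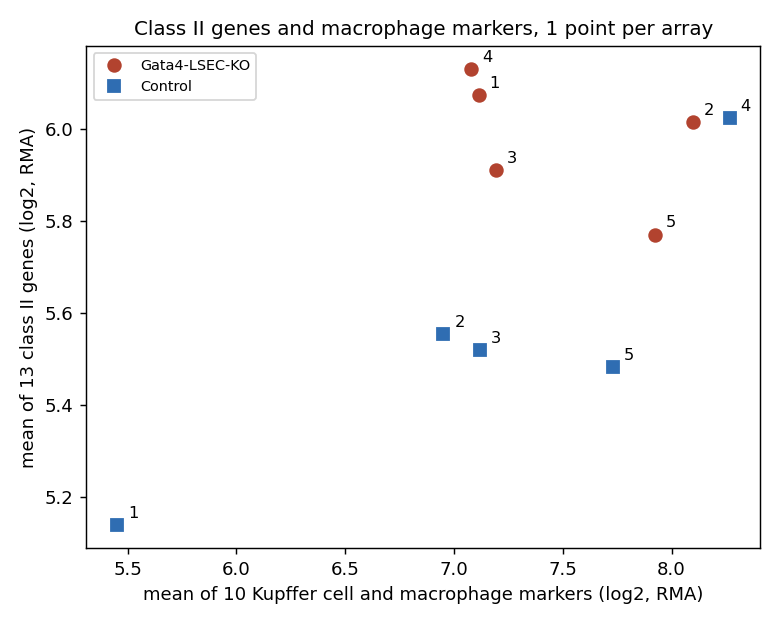
Mean log2 array value of the 13 class II genes (y axis) against that of 10 Kupffer cell and macrophage markers (x axis), 1 point per array, labelled with its replicate number. Control replicate 1 is lowest on both axes, control replicate 4 lies among the Gata4-LSEC-KO arrays in class II mean, and the other 3 controls lie below all 5 Gata4-LSEC-KO arrays in class II mean at marker means of 6.95 to 7.73.

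Markers of other class II positive cells were read beside these values. For the counts below, 1.3% of all genes rose, 0.846% fell and 13.6% had an unadjusted p under 0.05. Of 9 measured B cell markers 0 passed (0 at an unadjusted p under 0.05), with list means of 3.11 to 3.45 in Gata4-LSEC-KO and 3.03 to 3.31 in control arrays, and 7 of the 9 lay below the array median in both groups. Of 10 dendritic cell markers 1 passed, Cd209a, a lectin of monocyte-derived dendritic cells, which rose by 2.26 ± 0.32 on the log2 scale (adjusted p = 0.00376 by limma). The dendritic list averaged 3.80 to 3.97 in Gata4-LSEC-KO and 3.55 to 3.90 in control arrays, and the differences of its 10 markers were above 0 in 6 and below 0 in 4. The 3.90 was control replicate 1, and the other controls, at 3.55 to 3.69, lay below every Gata4-LSEC-KO array. Both group means lay above the array median in 3 of the 10, among them Zbtb46 (6.61 in Gata4-LSEC-KO and 6.91 in control arrays) and Clec9a (3.88 in Gata4-LSEC-KO and 4.32 in control arrays), and below it in 5, among them Flt3 and Xcr1. At an unadjusted p under 0.05, Cd209a and Itgax were higher and Clec9a lower. With the dendritic mean of each array as a covariate, H2-DMb2 stood at 1.24 ± 0.38 (adjusted p = 0.0596) and its call ended, while H2-Aa (1.86 ± 0.47, adjusted p = 0.0342), H2-Ab1, H2-DMb1 and Cd74 passed, in a fit where 10.3% of all genes passed, 4.95% rising and 5.33% falling. Apart from control replicate 1 this covariate separates the groups, so the group differences of that fit lean on that array and no conclusion is drawn from them. In the neutrophil and monocyte list 5 of 10 genes rose, 0 fell and 5 did not pass, and the list averaged 4.23 to 5.47 in Gata4-LSEC-KO and 3.10 to 3.75 in control arrays. Among them were Ly6c2 (1.93 ± 0.33, adjusted p = 0.0100) and Ccr2 (1.03 ± 0.22, adjusted p = 0.0389), both known from inflammatory monocytes. The call of Ccr2 stood in 3 of 10 fits that left out 1 array. It ended on leaving out Gata4-LSEC-KO replicates 1, 2 and 4 and control replicates 1, 2, 3 and 5 in turn, with a highest adjusted p of 0.105. The other 3 were S100a8, S100a9 and Ngp, which encode neutrophil granule and cytosol proteins. The part of monocytes in the rise of H2-DMb2 was not tested. T and NK cell markers gave 0 calls among 10, with 1 at an unadjusted p under 0.05. Plasma cell genes gave 1 call among 8, the joining chain gene Jchain (1.40 ± 0.23, adjusted p = 0.00924). The differences of the 8 were above 0 in 3 and below 0 in 5. Among those below was Sdc1 (-0.72 ± 0.22, adjusted p = 0.147), whose groups, like those of Jchain, did not overlap. Beyond immune cells, the hepatocyte list averaged 6.64 to 8.51 in Gata4-LSEC-KO and 6.73 to 7.16 in control arrays, with 8 of 9 differences above 0. In it 1 marker of 9 rose (Tat) and 1 fell (Cyp2e1), calls that stood in 6 and 5 of 10 fits that left out 1 array (highest adjusted p 0.0596 and 0.0781). Tat lost its call on leaving out Gata4-LSEC-KO replicate 1 and control replicates 3, 4 and 5 in turn, and Cyp2e1 on leaving out these and Gata4-LSEC-KO replicate 2. Of the other lists, 0 of 6 cholangiocyte and 0 of 8 stellate cell markers passed (5 and 4 at an unadjusted p under 0.05). The 5 cholangiocyte markers were higher, and of the 4 stellate markers 3 were higher and 1 lower. At that threshold 7.07% of all genes were higher and 6.57% lower. All 6 cholangiocyte differences were above 0, and the list averaged 4.61 to 6.55 in Gata4-LSEC-KO and 3.71 to 4.55 in control arrays. Of the stellate differences 6 were above 0 and 2 below. In the pan-endothelial list 1 of 10 rose, Mcam, at 9.01 in Gata4-LSEC-KO and 7.77 in control arrays (adjusted p = 0.000242 by limma). Mcam encodes CD146, the antigen of the isolation beads, and any effect on the cells captured was not tested. In the sinusoidal endothelial list 3 of 10 fell (Clec4g, Mrc1 and Maf). Maf and Mcam were called in 10 of 10 fits that left out 1 array, Clec4g in 5 (highest adjusted p 0.0598) and Mrc1 in 3 (0.107). Clec4g and Mrc1 both lost the call on leaving out Gata4-LSEC-KO replicates 1 and 2 and control replicates 2, 3 and 4 in turn, and Mrc1 also for Gata4-LSEC-KO replicate 4 and control replicate 5.

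**Figure D3:**
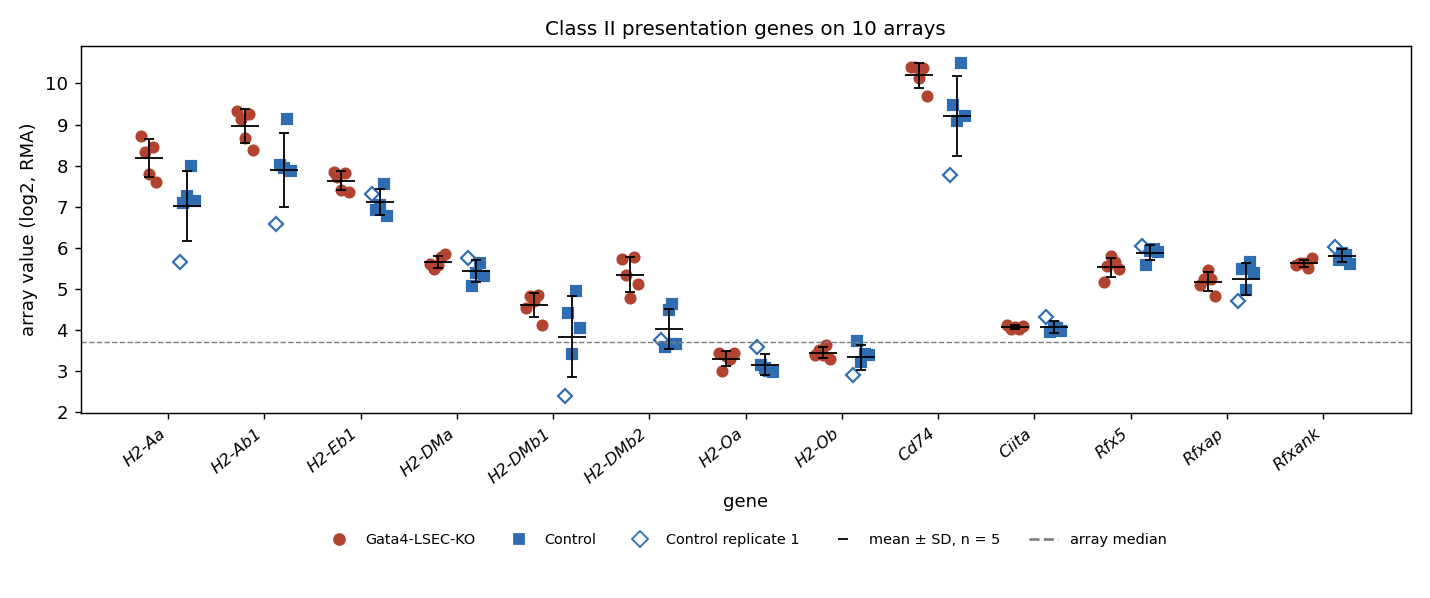
Log2 array values of the 13 class II genes on each array, Gata4-LSEC-KO (red circles) left of Control (blue squares, with control replicate 1 as an open diamond), black bars giving mean ± SD (n = 5) and the dashed line the array median of 3.71. The groups are apart in H2-DMb2, and in H2-Aa, H2-Ab1, H2-DMb1 and Cd74 the controls spread from replicate 1 below to replicate 4 within or above the Gata4-LSEC-KO values.

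Other genes of class II processing came from a list of 14, of which 0 rose, 2 fell and 12 did not pass. Over all genes 1.3% rose and 0.846% fell. Cathepsin L, Ctsl, a lysosomal protease that can trim the invariant chain, fell by 0.73 on the log2 scale, to 9.82 in Gata4-LSEC-KO, against 10.55 in control arrays (SE 0.11, adjusted p = 0.00465 by limma). Legumain, Lgmn, an endosomal protease, fell by 0.54 on the log2 scale, to 10.32 in Gata4-LSEC-KO, against 10.86 in control arrays (SE 0.12, adjusted p = 0.0359). The call of Ctsl stood in 10 of 10 fits that left out 1 array, and that of Lgmn in 3 of 10. The Lgmn call ended on leaving out Gata4-LSEC-KO replicates 1, 3, 4 and 5 and control replicates 2, 4 and 5 in turn (highest adjusted p 0.0928). Cathepsin S, Ctss, the main invariant chain protease of professional antigen-presenting cells, averaged 9.15 ± 0.37 in Gata4-LSEC-KO and 8.38 ± 0.97 in control arrays (SD, n = 5) and did not pass (adjusted p = 0.439).

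In class I the heavy chains did not pass in either direction. H2-K1, a classical heavy chain, read 9.30, 9.43, 10.01, 9.28 and 9.54 in the Gata4-LSEC-KO arrays, against 9.89, 9.67, 9.44, 9.87 and 9.63 in the control arrays. H2-D1, the other classical heavy chain, read 11.54, 10.78, 11.22, 11.71 and 11.64 in the Gata4-LSEC-KO arrays, against 11.09, 10.52, 11.50, 10.74 and 11.16 in the control arrays. The groups overlapped in both, and the differences had opposite signs, -0.19 ± 0.15 for H2-K1 (adjusted p = 0.653) and 0.38 ± 0.22 for H2-D1 (adjusted p = 0.507). Class I heavy chain genes are close relatives, so their probe sets may share signal. B2m, the light chain common to all class I molecules, read 12.08, 11.84, 11.84, 11.94 and 11.68 in the Gata4-LSEC-KO arrays, against 11.90, 11.84, 11.54, 11.73 and 12.00 in the control arrays. Its groups overlapped, and its 95% interval was -0.18 to 0.33 (difference 0.07 ± 0.12, adjusted p = 0.838).

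The non-classical heavy chain H2-T23 (Qa-1), which shows peptides to NK cell receptors, is described here because of 1 array, and was chosen after its values were seen. It read 7.30, 7.39, 7.28, 7.21 and 7.56 in the Gata4-LSEC-KO arrays, against 6.34, 7.97, 8.06, 8.06 and 8.09 in the control arrays. Control replicate 1 was below every other array, while the other 4 controls were above all 5 Gata4-LSEC-KO arrays. With all arrays the difference was -0.35 ± 0.30 (adjusted p = 0.668). Without control replicate 1 it was -0.70 ± 0.10 (adjusted p = 0.00343) in a fit where 1.39% of all genes fell; with all arrays weighted by their quality it was -0.66 ± 0.16 (adjusted p = 0.0324), where 4.33% of all genes passed, 1.84% falling and 2.49% rising. The direction was not the same in all fits: the B cell covariate gave -0.12 ± 0.29 (adjusted p = 0.882) and the dendritic covariate turned the sign, to 0.43 ± 0.31 (adjusted p = 0.418). H2-M3, which presents formylated peptides, averaged 5.76 ± 0.35 in Gata4-LSEC-KO and 5.93 ± 0.32 in control arrays (SD, n = 5) (adjusted p = 0.754).

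Tap1, a subunit of the peptide transporter, read 6.37, 6.64, 7.03, 6.91 and 7.12 in the Gata4-LSEC-KO arrays, against 6.45, 6.53, 6.65, 6.70 and 6.69 in the control arrays. The Gata4-LSEC-KO values spread on both sides of the controls, and the difference was 0.21 ± 0.14 (adjusted p = 0.582). Tap2, the other subunit, averaged 6.77 ± 0.22 in Gata4-LSEC-KO and 6.89 ± 0.15 in control arrays (SD, n = 5) (adjusted p = 0.737). Tapasin, Tapbp, which bridges the transporter to the class I molecule, averaged 8.26 ± 0.21 in Gata4-LSEC-KO and 8.28 ± 0.17 in control arrays (SD, n = 5) (adjusted p = 0.960). The loading chaperones lay slightly lower without passing: calreticulin, Calr, at -0.17 ± 0.09 (adjusted p = 0.495), calnexin, Canx, at -0.10 ± 0.10 (adjusted p = 0.726), and the disulfide isomerase Pdia3 at -0.30 ± 0.13 (adjusted p = 0.348). Erap1, which trims peptides in the endoplasmic reticulum, stood at -0.17 ± 0.11 (adjusted p = 0.554).

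The 3 immunoproteasome subunits lay lower in Gata4-LSEC-KO arrays, none of them past the threshold. Psmb10 read 7.87, 7.90, 7.89, 7.93 and 7.86 in the Gata4-LSEC-KO arrays, against 8.17, 8.04, 8.18, 8.09 and 8.18 in the control arrays. Every Gata4-LSEC-KO value was below every control value, and the difference of -0.24 ± 0.08 was small (adjusted p = 0.200). Together with H2-DMb2 it was 1 of 2 members of 36 whose groups did not overlap, against 4.93% of all genes (2.37% lower, as Psmb10, and 2.55% higher, as H2-DMb2). Psmb8 read 6.96, 7.06, 7.20, 7.42 and 7.26 in the Gata4-LSEC-KO arrays, against 8.05, 7.08, 7.42, 7.42 and 7.46 in the control arrays. The groups overlapped and control replicate 1 was the highest array, so the difference of -0.30 ± 0.17 (adjusted p = 0.483) became -0.16 ± 0.12 (adjusted p = 0.615) without it. Psmb9 averaged 6.66 ± 0.11 in Gata4-LSEC-KO and 7.13 ± 0.49 in control arrays (SD, n = 5) (adjusted p = 0.330), with control replicate 1 at 7.95 and the other controls at 6.71 to 7.19, and its difference was -0.27 ± 0.12 (adjusted p = 0.292) without that array.

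Nlrc5, the coactivator of class I genes, read 4.01, 3.77, 4.71, 4.11 and 4.40 in the Gata4-LSEC-KO arrays, against 4.21, 4.26, 4.76, 4.51 and 4.57 in the control arrays. The groups overlapped, with a difference of -0.26 ± 0.18 (adjusted p = 0.577). Over the 16 class I members the median difference was -0.17, against -0.02 over all genes. Of the 16, 13 lay below 0, where 55.2% of all genes lay below 0. At an unadjusted p under 0.05, 3 of the 16 were lower (Psmb9, Psmb10 and Pdia3) and 0 higher, where 6.57% of all genes were lower and 7.07% higher. Like the class II members, these genes are not independent of each other. For 15 of the 16, all except H2-T23, the 95% interval of the difference lay within 2-fold either way.

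**Figure D4:**
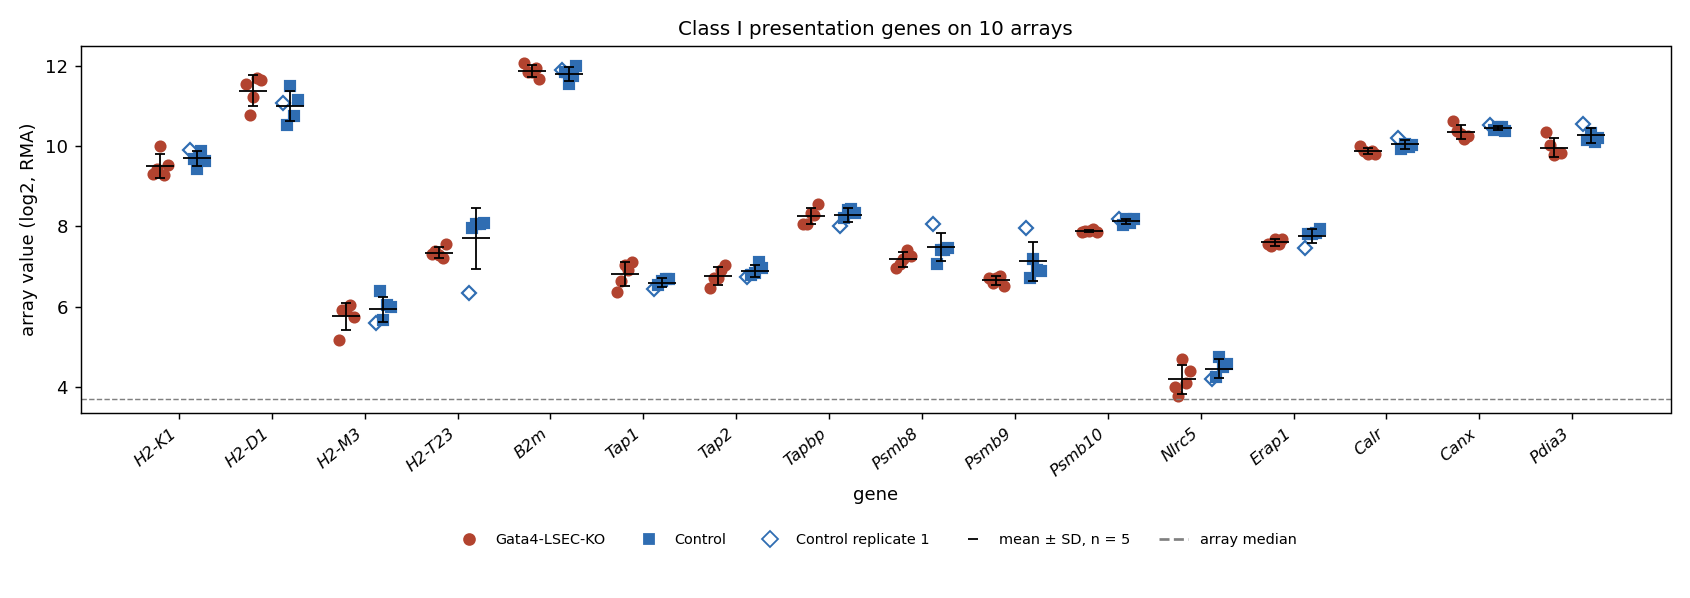
Log2 array values of the 16 class I genes on each array, Gata4-LSEC-KO (red circles) left of Control (blue squares, with control replicate 1 as an open diamond), black bars giving mean ± SD (n = 5) and the dashed line the array median of 3.71. The groups overlap in 15 of the 16 genes and are narrowly apart in Psmb10, and control replicate 1 lies far below the other controls in H2-T23 and above them in Psmb8 and Psmb9.

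Of 19 other measured class I genes, 1 rose, 0 fell and 18 did not pass, where 1.3% of all genes rose and 0.846% fell. The gene that rose was H2-M2, a non-classical heavy chain gene, at 4.18 in Gata4-LSEC-KO and 3.41 in control arrays (difference 0.76 ± 0.13, adjusted p = 0.0117 by limma). Its values were 4.05, 4.55, 3.86, 4.26 and 4.15 in the Gata4-LSEC-KO arrays, against 3.52, 3.31, 3.39, 3.30 and 3.55 in the control arrays, and the control values were all under the array median. The call stood in 10 of 10 fits that left out 1 array. Among 15 measured regulators of the interferon-gamma route, which induces both classes, 0 rose, 1 fell and 14 did not pass. Socs1, the feedback inhibitor of JAK signalling, fell by 0.72 on the log2 scale, to 4.70 in Gata4-LSEC-KO, against 5.42 in control arrays (SE 0.12, adjusted p = 0.00785), also in 10 of 10 such fits.

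The 7 genes of lipid presentation and costimulation gave 0 calls by limma, with 1 at an unadjusted p under 0.05, against 13.6% of all genes. Cd1d1, which presents lipids to NKT cells, read 3.30, 2.65, 2.15, 3.44 and 2.29 in the Gata4-LSEC-KO arrays, against 2.13, 3.14, 2.81, 3.13 and 2.63 in the control arrays. The groups overlapped over nearly their whole range, all 10 values lay under the array median, and the interval of the difference was -0.61 to 0.61. Cd40, the receptor through which T cell help reaches antigen-presenting cells, read 3.72, 4.28, 4.17, 3.69 and 4.04 in the Gata4-LSEC-KO arrays, against 4.43, 3.59, 4.34, 3.98 and 4.22 in the control arrays. Its groups overlapped as well (difference -0.13 ± 0.18, adjusted p = 0.807).

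Cd80 and Cd86 encode the ligands of CD28 and CTLA-4. Cd80 read 3.13, 3.19, 2.63, 3.07 and 2.99 in the Gata4-LSEC-KO arrays, against 2.46, 3.04, 2.69, 3.46 and 2.92 in the control arrays. Cd86 read 4.20, 4.62, 3.89, 3.80 and 3.91 in the Gata4-LSEC-KO arrays, against 3.32, 4.11, 4.12, 4.99 and 4.47 in the control arrays. In both genes the controls spread more widely than the Gata4-LSEC-KO arrays, from replicate 1 at the bottom to replicate 4 at the top, the same ends as the macrophage markers. The differences were 0.09 ± 0.18 (adjusted p = 0.869) and -0.12 ± 0.27 (adjusted p = 0.893).

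Cd274 encodes PD-L1, a ligand that restrains T cells through PD-1. It read 4.42, 4.50, 4.72, 4.57 and 4.95 in the Gata4-LSEC-KO arrays, against 5.15, 4.62, 4.96, 5.13 and 4.61 in the control arrays. The groups overlapped, and the difference of -0.26 ± 0.15 did not pass (adjusted p = 0.498, 95% interval -0.59 to 0.06). Pdcd1lg2, the gene of the second PD-1 ligand, averaged 2.57 ± 0.27 in Gata4-LSEC-KO and 2.88 ± 0.10 in control arrays (SD, n = 5) (adjusted p = 0.345), under the array median in both groups. Icosl, the ligand of ICOS, averaged 4.69 ± 0.23 in Gata4-LSEC-KO and 4.51 ± 0.14 in control arrays (SD, n = 5) (adjusted p = 0.597). For all 7 genes the 95% interval of the difference lay within 2-fold of array values either way, with Cd1d1, Cd80 and Pdcd1lg2 under the array median on every array.

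**Figure D5:**
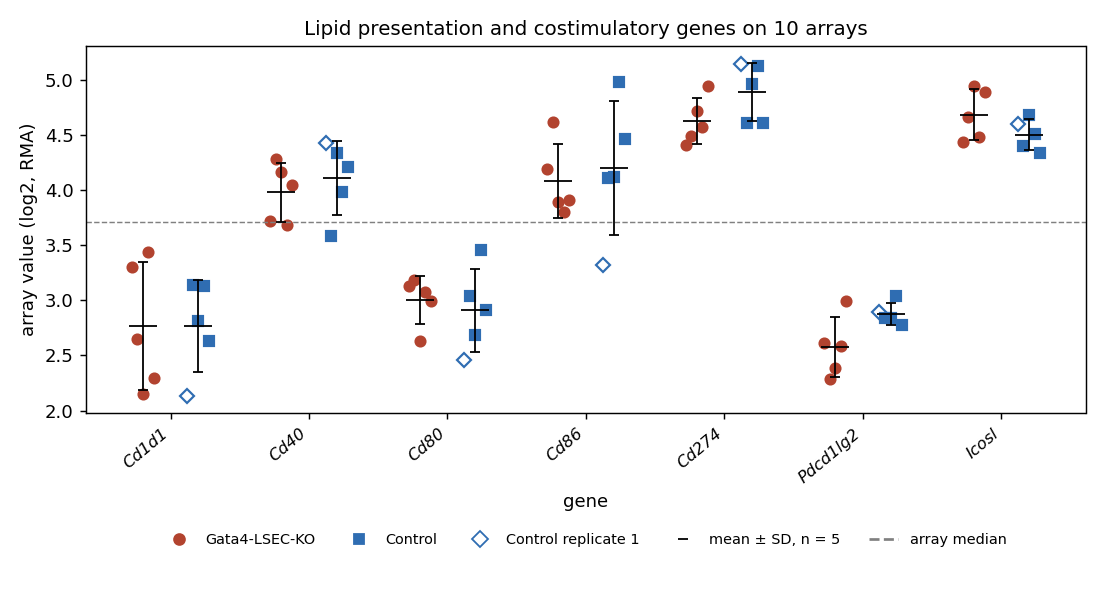
Log2 array values of Cd1d1, Cd40, Cd80, Cd86, Cd274, Pdcd1lg2 and Icosl on each array, Gata4-LSEC-KO (red circles) left of Control (blue squares, with control replicate 1 as an open diamond), black bars giving mean ± SD (n = 5) and the dashed line the array median of 3.71. The groups overlap in all 7 genes, and Cd1d1, Cd80 and Pdcd1lg2 lie under the array median on every array.

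Of 17 other costimulatory and coinhibitory ligands, 2 rose, 0 fell and 15 did not pass, where 1.3% of all genes rose and 0.846% fell. Cd200, a membrane protein that restrains myeloid cells, read 6.78, 7.11, 6.82, 7.02 and 6.95 in the Gata4-LSEC-KO arrays, against 5.01, 6.08, 6.30, 5.42 and 5.81 in the control arrays. Its groups were apart, with a difference of 1.21 ± 0.21 (adjusted p = 0.0133 by limma), and the call stood in 10 of 10 fits that left out 1 array. Cd276 (B7-H3), a member of the B7 family, averaged 5.10 in Gata4-LSEC-KO and 4.30 in control arrays (difference 0.80 ± 0.17, adjusted p = 0.0349). That call stood in 4 of 10 such fits, and ended on leaving out Gata4-LSEC-KO replicates 2, 3, 4 and 5 and control replicates 3 and 5 in turn (highest adjusted p 0.0954). The genes of this list were also chosen with earlier results of these data known.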

How the data were processed

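The 10 arrays were analysed as 10 samples, 5 of Gata4-LSEC-KO and 5 of control pools. The deposited log2 values were made by the authors with RMA (background correction, quantile normalization and 1 value per probe set), per the submitters' processing notes; neither array design nor genome build is named there. No detection calls were used, and the number of arrays limits the precision. Of 25428 probe sets, 24705 carried 1 gene symbol, 0 several and 723 none, which left 24704 genes; names came from the platform annotation, and 24672 of the genes were found in the RefSeq table.

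Groups were compared with limma 3.58.1 in R 4.3.3 (lmFit and eBayes on the log2 values), with Benjamini-Hochberg adjustment over all 24704 genes and a threshold of 0.05. Pools were treated as replicates. The scripts were tested on simulated data. The members, companion lists and marker lists were chosen with earlier results of these data known. Every member is accounted for. Values per array are given for members past the threshold, for those whose groups did not overlap and for a fixed set of central genes, with H2-T23 added after its values were seen, and companion lists name up to 4 called genes with the largest change. Alternatives left out each array, added a replicate block, an intensity trend, array weights or a marker mean as covariate, or kept genes above the array median. The macrophage covariate without control replicate 1, and all fits of companion and marker genes, were added after seeing the data.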

Additional observations from a re-analysis of the deposited data

Results flagged for a closer look

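In 3 members, 1 control array lay far from the other 4 in a screen of 78 sets of 5 values, and in each it was control replicate 1. Chance gives about 1 such set in 20, and 3 of 78 is no more than that by count. The sets share arrays and are not independent, so the count does not assess that all 3 fell on control replicate 1, which stood apart over all genes. H2-T23 read 6.34 on that array and 7.97 to 8.09 on the other controls. Erap1 read 7.47 there and 7.81 to 7.93 on the others. H2-Oa read 3.60 there and 2.99 to 3.14 on the others.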

How the results depend on the processing

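Of the 36 members, 23 kept 1 sign in all 18 alternatives and 13 did not. The 529 calls over all genes became 287 to 737 when 1 array was left out, 275 with a replicate block, 1070 with array weights and 2539 with the dendritic cell covariate. Class I calls, 0 with all arrays, were 0 to 1 with 1 array left out, 1 with array weights, 1 with the macrophage covariate without control replicate 1 (H2-T23 each time) and 2 with the dendritic covariate (Psmb8 and Psmb9, lower). Class II calls, 1 with all arrays, were 0 to 1 with 1 array left out, 0 with the replicate block (H2-DMb2 adjusted p = 0.0536) and 4 with the dendritic covariate. Costimulatory calls were 0 in every alternative. Same-numbered arrays of the 2 groups did not deviate together (correlations -0.05, 0.04, 0.0062, 0.02 and -0.16; 0 of 10 arrays correlated best with their own number), so they share only a number. Differences turned sign with the dendritic covariate in H2-D1 (-0.0039), H2-M3 (0.26), H2-T23 (0.43), B2m (-0.022), Tapbp (0.089), H2-DMa (-0.070), H2-Oa (-0.17), Rfxap (0.39), Cd1d1 (0.24) and Cd86 (0.42). They did with the B cell covariate in Cd1d1 (0.013) and Cd86 (0.082), with array weights in Ciita (0.049) and Cd80 (-0.036), with the macrophage covariate in Ciita (0.032) and Cd80 (-0.012), and with that covariate without control replicate 1 in H2-Ob (-0.0034), Ciita (0.059) and Cd80 (-0.011). With 1 array left out, differences spanned 0 in Tapbp (-0.10 to 0.027), H2-Ob (-6.3e-05 to 0.21), Ciita (-0.034 to 0.058), Rfxap (-0.20 to 0.038), Cd1d1 (-0.17 to 0.15), Cd80 (-0.021 to 0.23) and Cd86 (-0.34 to 0.080). The cause of these changes was not tested. The dendritic means of the groups overlapped only through control replicate 1, so differences with that covariate lean on that array. The filter on dim genes left out H2-Oa, H2-Ob, Cd1d1, Cd80 and Pdcd1lg2.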
